A study of Mus musculus with 16 samples.

Results

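The genes described here are 39 genes that type I interferons induce, followed through microglia of the mouse olfactory bulb. They were taken from the count table by symbol, and all 39 met the minimum for a gene to be tested, 5 counts or more in 8 or more of the 16 libraries. They stand among 57010 genes in the table, of which 18227 passed the same minimum. The libraries came from mice aged 2 months, 4 from each sex of each genotype. WT mice were C57BL/6J, with the unmodified mouse App gene. In the other genotype, APP-NL-G-F (called knock-in below), the endogenous App gene of the same strain is replaced by a humanised form that bears the Swedish (NL), Iberian (F) and Arctic (G) changes, and amyloid-beta rises without a transgene promoter. In both genotypes the bulb was digested with papain, cells were captured on magnetic beads against CD11b, a surface protein of myeloid cells, and rRNA-depleted total RNA was sequenced. The labels number the libraries 1 to 4 within each group and do not say whether each is a single mouse. Because the study mentions technical replicates for its RNA sequencing without naming them, some libraries of a group may come from the same animals. Every n here counts libraries, and the tests measure the spread between libraries, which may be technical.

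Type I interferons bind a receptor made of IFNAR1 and IFNAR2, whose kinases JAK1 and TYK2 activate STAT proteins. With IRF9 these form a complex that enters the nucleus and binds the interferon-stimulated response element, a short promoter motif, and so switches on a large antiviral programme in nearly any cell. Microglia, the resident macrophages of the brain, carry the receptor, and a subset rich in these transcripts is known from development, ageing, infection and amyloid models.

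The response element is shown first because it is what many of these genes have in common in their DNA. Its core, GAAANNGAAA, was searched on both strands in the 250 bases before the start of each gene's main transcript (GRCm39, gencode vM39). It was found for 17 of the 39 genes (43.6%), against 3.32% of 21770 protein-coding genes and 3.16% of the 13687 of them that were tested here. The STAT dimer core, TTCNNNGAA, was found for 5 of the 39 genes (12.8%) and for 7.70% of all protein-coding genes, and in 2 members both motifs were present. A match says only that these letters are there. It is not a measurement of binding, and a gene without a match may hold its element elsewhere. The stretches below are those of the gene pair that varied most alike (Ifit3 and Usp18), of the near copy Ifit3b, and of Ifit1, Isg15, Rsad2, Rtp4 and Zbp1, whose levels in WT and knock-in libraries are given with their roles. Each is written in the direction of the gene, with matches to the core in capitals (the core begins with TTTC where it lies on the other strand).
Ifit1, chr19:34618179-34618238, plus strand: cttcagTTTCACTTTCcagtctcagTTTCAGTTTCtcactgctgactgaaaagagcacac
Ifit3, chr19:34560782-34560841, plus strand: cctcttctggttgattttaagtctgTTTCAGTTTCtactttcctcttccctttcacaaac
Ifit3b, chr19:34585178-34585237, plus strand: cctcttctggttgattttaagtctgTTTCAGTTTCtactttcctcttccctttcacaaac
Isg15, chr4:156285307-156285366, minus strand: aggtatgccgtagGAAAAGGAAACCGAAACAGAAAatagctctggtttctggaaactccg
Usp18, chr6:121222781-121222840, plus strand: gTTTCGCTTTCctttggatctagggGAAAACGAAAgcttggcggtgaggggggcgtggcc
Rsad2, chr12:26506537-26506596, minus strand: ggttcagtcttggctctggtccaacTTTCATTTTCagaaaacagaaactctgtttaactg
Rtp4, chr16:23428602-23428645, plus strand: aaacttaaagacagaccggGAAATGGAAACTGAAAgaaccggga
Zbp1, chr2:173060727-173060786, minus strand: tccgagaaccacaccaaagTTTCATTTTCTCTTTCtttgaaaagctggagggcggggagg
In Isg15, Rtp4 and Zbp1 matches overlap each other in a run of repeated GAAA units, 3 of them in Isg15. The stretches of Ifit3 and Ifit3b are the same base for base, as are 99.1% of 1209 aligned coding bases. Reads that fit both could thus be lost in counting or split between these neighbours, and the values of both are uncertain. Ifi204 and Ifi207 share 88.0% of 1856 aligned coding bases.

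The libraries held 9052932 to 18117286 counts. The limit set by a count of 0 (3 counts, for counting error only) was 0.166 to 0.331 CPM, where CPM are counts scaled to a common library total. Sex labels matched the counts of Xist and of 4 Y-linked genes in all 16 libraries, and none of the libraries was a copy of another of its group. The 15 microglia markers summed to between 25456 and 30480 CPM per library, far above any other cell type list.

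Most of these genes were present at a low level in both genotypes. Per kilobase of exon, the most abundant over the 16 libraries was Lgals3bp, a secreted glycoprotein that binds galectins, at a mean of 34.9 CPM per kilobase. Slfn2, a Schlafen protein that keeps immune cells quiescent, followed at 23.7, Bst2 (tetherin), which holds budding virus at the membrane, at 15.9, Parp14, an ADP-ribosyltransferase, at 12.8 and Ifitm3, which blocks virus entry from endosomes, at 12.6 CPM per kilobase. At the other end stood Ifit1 at 0.814, Oas1a at 0.728 and Ifi44 at 0.198 CPM per kilobase. Ifi44 had only 4 to 41 counts in any library. Without correction for length, Lgals3bp (mean 183.5 CPM), Parp14 (122.7 CPM), Trim30a (77.4 CPM), Irf9 (51.5 CPM) and Eif2ak2 (51.5 CPM) led.

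The members varied from library to library more than most genes did. After the mean of each of the 4 groups was subtracted, the median standard deviation of log2 CPM was 0.435 over the members and 0.213 over all tested genes. The highest library exceeded the lowest by 1.46-fold for Gbp3 and by 7.69-fold for Usp18. The widest spreads belonged to Ifi44 (SD 0.719 on the log2 scale), Rsad2 (0.670), Oasl1 (0.628), Irf7 (0.595) and Usp18 (0.575). The narrowest belonged to Gbp3 (0.155) and Irf9 (0.165).

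The same few libraries held most of the high values. The mean log2 CPM over the 39 genes was highest in knock-in male replicate 4 (4.68), WT male replicate 2 (4.50), knock-in female replicate 2 (4.43) and knock-in male replicate 3 (4.26). It was lowest in WT male replicate 1 (3.43), knock-in male replicate 1 (3.53) and knock-in male replicate 2 (3.61), and the 4 WT female libraries lay between 3.76 and 4.08. Both the highest and the second lowest library thus came from knock-in males. Knock-in male replicate 4 had the highest value of any library for 21 of the 39 genes, WT male replicate 2 for 10 and knock-in female replicate 2 for 5. In knock-in male replicate 4 all 39 genes were above the median of the other 3 libraries of their group, and 20 were at least 2-fold above it. WT male replicate 2 was above that median for 38 genes (13 of them at least 2-fold) and knock-in female replicate 2 for 37 (7 at least 2-fold).

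**Figure D1:**
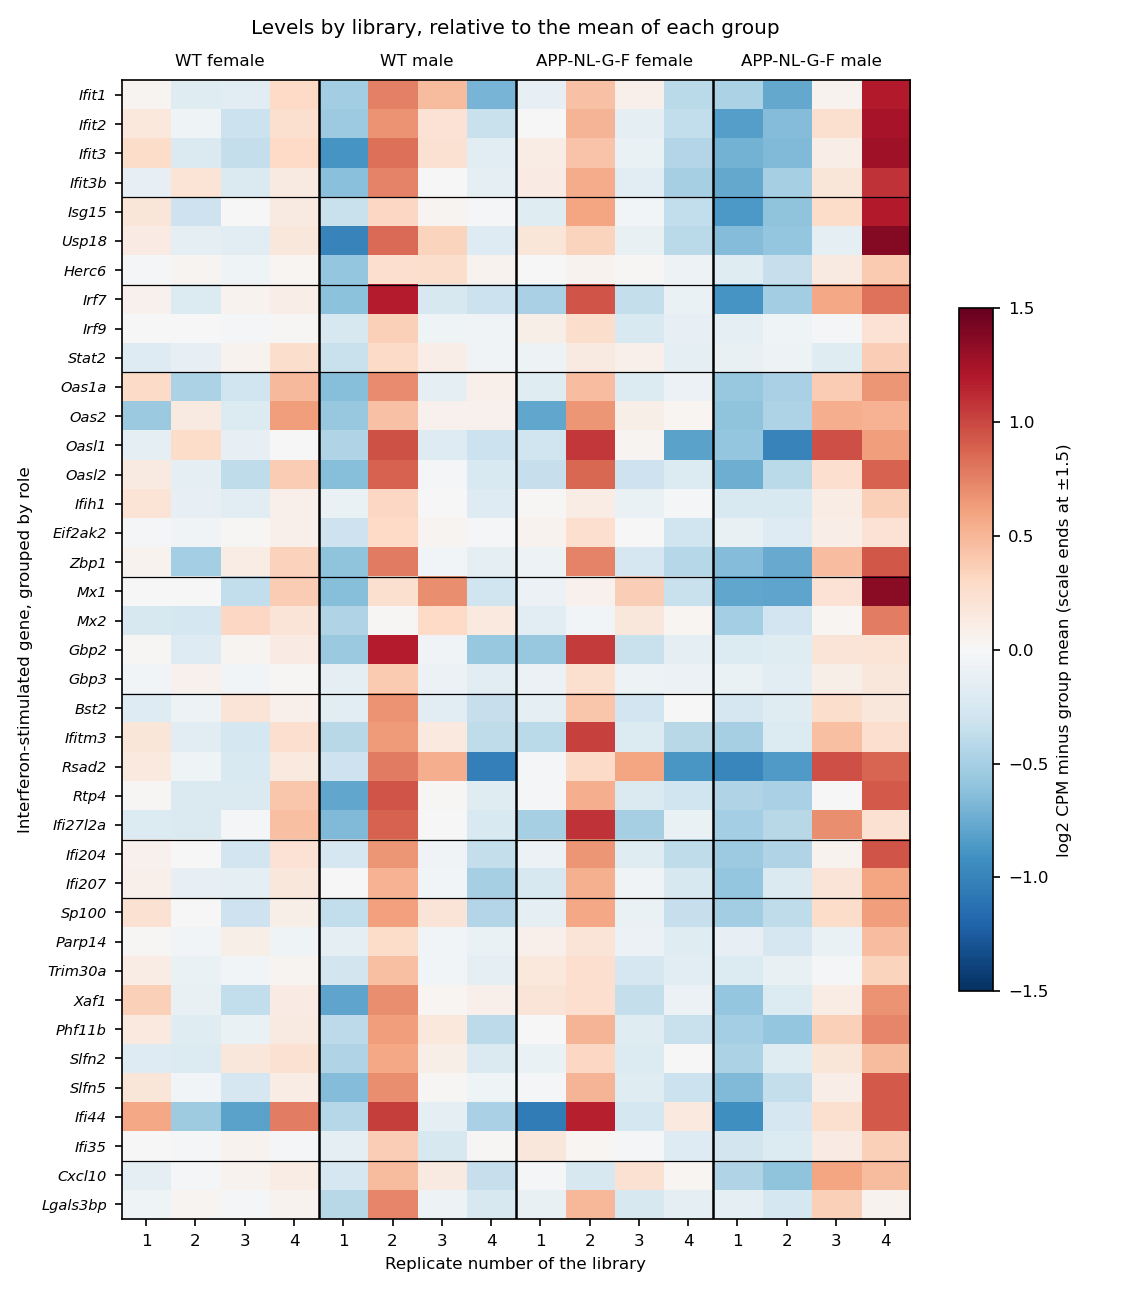
Each row is 1 of the 39 interferon-stimulated genes, grouped by role, and each column 1 of the 16 libraries; colour gives log2 CPM minus the mean of the library's group, with the scale ending at ±1.5. Columns of 1 colour run through nearly all rows: replicate 4 of the knock-in males and replicate 2 of the WT males and knock-in females are high, and WT male replicate 1 and knock-in male replicates 1 and 2 are low.

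The genotype comparison asks whether microglia of the bulb carry, at this young age, more or less of the interferon programme with the knock-in. None of the 39 genes was called by edgeR's quasi-likelihood test with sex as an additive term (Benjamini-Hochberg adjusted p, the FDR, under 0.1, with a log2 fold change beyond 0.5 either way). Among all tested genes 8.64% were called by that rule. Stat2 alone of the members had an unadjusted p below 0.05, as had 24.1% of all tested genes. DESeq2 also called 0, with 3 members (Ifit3b, Stat2 and Eif2ak2) at an unadjusted p below 0.05, and limma voom called 0, with Stat2. Shares of all tested genes were counted for edgeR alone, here and below, so counts by the other tools have no such share beside them. The lowest FDR of a member was 0.195. The ranges of the 8 WT and 8 knock-in libraries overlapped for all 39 genes, and did not overlap for 1.29% of all tested genes. With genotype permuted within sex, Stat2 had an exact p of 0.0678 (4900 splits, two-sided). In bulk RNA a change in the share of cells that express these genes and a change in RNA per cell cannot be told apart.

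The fitted log2 fold changes, knock-in against WT, ran from -0.30 for Gbp2 to 0.52 for Ifit3b, with a median of 0.13, while the median of all tested genes was -0.0014. They were above 0 for 31 genes and below 0 for 8. Their median standard error was 0.206. The 95% interval lay within 1 log2 unit of 0 for 34 of the 39 genes and within 0.5 for 18, so for the other 21 genes a change of the size that the call requires was not excluded by the interval. The lean above 0 changed with single libraries, in both directions. Without knock-in male replicate 4 the median was -0.00030, with 19 genes above and 20 below 0, and without WT male replicate 2 it was 0.21, with 36 genes above 0. Without the 3 libraries of highest mean level it was 0.018, with 22 genes above and 17 below 0. No member was called in any of these fits, nor with any other single library left out. Without WT male replicate 2 the lowest FDR of a member was 0.0722, that of Eif2ak2, at a log2 fold change of 0.25.

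**Figure D2:**
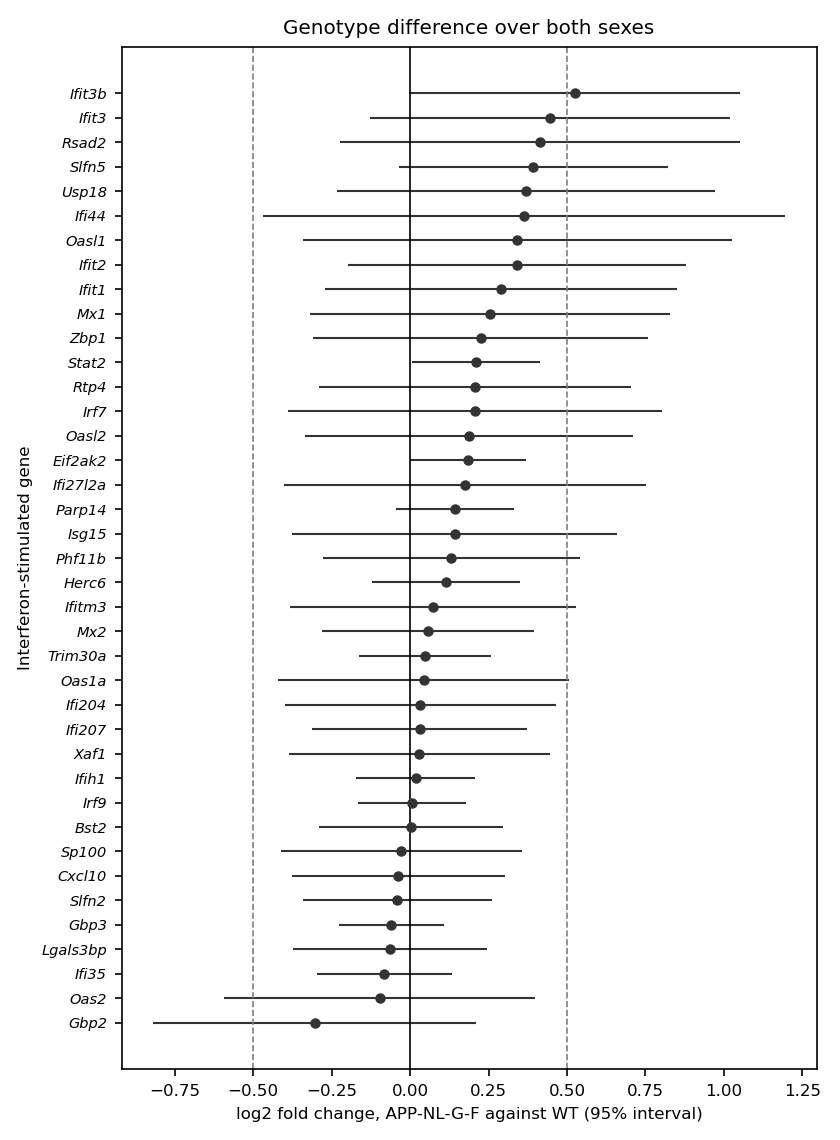
Points give the log2 fold change of each of the 39 genes in knock-in against WT microglia over both sexes (n = 8 libraries each), with 95% intervals from the edgeR fit; dashed lines mark the call threshold of 0.5 in either direction. The points run from -0.30 (Gbp2) to 0.52 (Ifit3b), and the interval of Stat2 alone leaves out 0.

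The IFIT proteins bind foreign RNA and stop its translation, and the 4 genes listed here lie close together on chromosome 19. Ifit1 overlaps Ifit1bl2 on the other strand, so their reads may be mixed. The 4 genes held the highest fold changes of any role, with a median of 0.39 and all 4 above 0. Ifit3 had 18.5, 13.1, 11.8 and 18.7 CPM in the WT females, 8.74, 28.9, 19.1 and 14.6 CPM in the WT males, 19.3, 24.1, 16.6 and 13.1 CPM in the knock-in females and 14.4, 14.9, 25.4 and 57.6 CPM in the knock-in males. The value of 57.6 CPM, in replicate 4 of the knock-in males, stood apart, since no other library passed 28.9 CPM, and apart from it the groups overlapped. Its log2 fold change was 0.44 (standard error 0.274, FDR 0.350) and fell to 0.14 without that library.

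Ifit3b, its near copy, ran from 3.43 to 9.11 CPM in WT (median 5.13) and from 4.34 to 17.6 CPM in knock-in libraries (median 6.27). It had the largest fold change of the list, 0.52 on the log2 scale (95% interval -0.0030 to 1.05, FDR 0.210), and 0.27 without knock-in male replicate 4. Ifit2 spanned 16.4 to 38.3 CPM in WT and 18.3 to 76.3 CPM in knock-in libraries, with medians of 24.5 and 23.6 CPM. Ifit1 spanned 2.95 to 8.32 CPM in WT and 3.81 to 15.2 CPM in knock-in libraries. For both, the knock-in range reached further up through its highest library while the medians stayed close.

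ISG15 is a small ubiquitin-like protein that is attached to other proteins, Herc6 is the ligase that attaches it in the mouse, and Usp18 removes it and also damps signalling at the interferon receptor. Isg15 had 4.28 to 6.13 CPM in WT females, 3.77 to 5.96 CPM in WT males and 3.74 to 7.46 CPM in knock-in females, whereas the knock-in males had 2.89, 3.47, 6.55 and 12.4 CPM. The lowest and the highest value of all 16 libraries were thus in the same group. Usp18 had 4.59, 4.80, 6.55 and 19.1 CPM in the knock-in males, against 2.48 to 9.39 CPM in WT and 4.94 to 8.36 CPM in knock-in females. The log2 fold changes over both sexes were 0.14 for Isg15 (standard error 0.247) and 0.37 for Usp18 (standard error 0.287). Herc6 was steadier, at 11.3 to 20.5 CPM in WT and 15.2 to 25.4 CPM in knock-in libraries, with a log2 fold change of 0.11 (standard error 0.113).

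**Figure D3:**
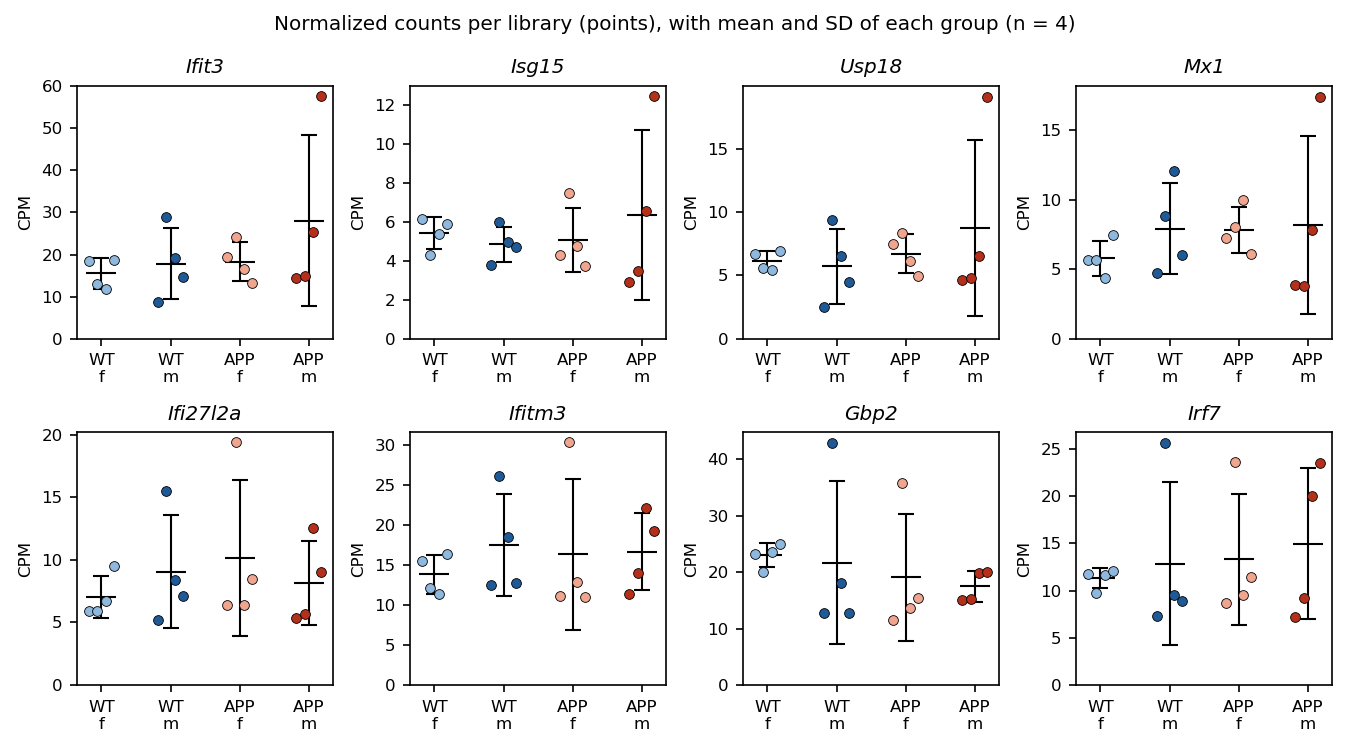
CPM of 8 of the genes in each library (points), with the mean and SD of each group (n = 4); WT f and WT m are WT females and males, APP f and APP m the knock-in females and males. A single high point in the knock-in males sets the wide SD of Ifit3, Isg15, Usp18 and Mx1, while for Gbp2, Ifitm3 and Ifi27l2a the high points are 1 WT male and 1 knock-in female library.

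Among the transcription factors, Stat2 and Irf9 are subunits of the complex that binds the response element, and Irf7 amplifies the transcription of interferon genes. Stat2 had the smallest p of the list. It ran from 21.2 to 32.8 CPM in WT (median 25.7) and from 26.3 to 39.4 CPM in knock-in libraries (median 28.4). Its log2 fold change was 0.21 (95% interval 0.0053 to 0.41, unadjusted p 0.0449, FDR 0.195). Irf9 was level, at 51.4 ± 6.27 CPM in WT and 51.7 ± 6.37 CPM in knock-in libraries (mean ± SD, n = 8 each), and its interval ran from -0.17 to 0.18. It overlaps Rnf31 on the same strand, so reads in the overlap may be lost or mixed. Irf7 had a median of 10.7 CPM in WT (7.28 to 25.6) and of 10.4 CPM in knock-in libraries (7.14 to 23.6). Its high values, 25.6 CPM in WT male replicate 2, 23.6 CPM in knock-in female replicate 2 and 23.5 CPM in knock-in male replicate 4, fell in both genotypes and both sexes.

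Of the RNA sensors and effectors, Eif2ak2 (PKR) halts translation on double-stranded RNA. It was at 41.3 to 63.4 CPM in WT (median 45.9) and 43.6 to 64.1 CPM in knock-in libraries (median 54.6), with a log2 fold change of 0.18 (95% interval -0.0012 to 0.37, FDR 0.210). Ifih1 (MDA5), a sensor of long double-stranded RNA, was at 41.0 ± 5.38 CPM in WT and 41.6 ± 5.96 CPM in knock-in libraries (n = 8 each). Zbp1, which senses Z-form nucleic acid and can start cell death, had medians of 7.22 CPM in WT (4.71 to 12.6) and 7.17 CPM in knock-in libraries (4.80 to 15.9). The oligoadenylate synthetases Oas1a and Oas2, which switch on RNase L, had log2 fold changes of 0.04 and -0.10 with standard errors of 0.221 and 0.236. Oasl1, which restrains Irf7, and its relative Oasl2 had fold changes of 0.34 and 0.19 on the log2 scale with standard errors of 0.326 and 0.249. Over the 7 genes of this role the median was 0.18.

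The dynamin-like and guanylate-binding GTPases, which attack virus particles and pathogen vacuoles, had no common direction. Mx1 ran from 4.35 to 12.1 CPM in WT and from 3.81 to 17.4 CPM in knock-in libraries, with a log2 fold change of 0.25 (standard error 0.274). The annotation marks 2 transcripts of Mx1 as loss-of-function and 2 as protein-coding, and 2 of Mx2 as loss-of-function and none as protein-coding. Gbp2 was lowest in fold change of all members. It had 22.97 ± 2.13 CPM in the WT females (mean ± SD, n = 4) and 12.8, 43.0, 18.2 and 12.7 CPM in the WT males, against 11.5, 35.7, 13.6 and 15.5 CPM in the knock-in females and 15.1, 15.2, 19.8 and 19.96 CPM in the males. Its log2 fold change was -0.30 (95% interval -0.82 to 0.21, FDR 0.498). Gbp3 was at 41.5 ± 5.51 CPM in WT and 39.9 ± 4.19 CPM in knock-in libraries (n = 8 each), an interval of -0.23 to 0.11.

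Of the membrane and organelle proteins, Rsad2 (viperin), which makes a chain-terminating nucleotide, ran from 2.23 to 8.21 CPM in WT and from 3.29 to 13.3 CPM in knock-in libraries. Its log2 fold change was 0.41 with a standard error of 0.304. Ifitm3 had medians of 14.2 and 13.4 CPM in WT and knock-in libraries, with single high values of 26.1 CPM in WT male replicate 2 and 30.4 CPM in knock-in female replicate 2. Ifi27l2a, which overlaps Ifi27 on the other strand so that their reads may be mixed, had medians of 6.91 and 7.41 CPM and peaked in the same libraries, at 15.5 and 19.4 CPM. Rtp4, a chaperone of membrane receptors, overlaps Masp1 on the other strand. It ran from 4.80 to 16.1 CPM in WT and from 6.45 to 17.4 CPM in knock-in libraries, with a log2 fold change of 0.21, and that of Bst2 was 0.0023.

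The PYHIN genes Ifi204 and Ifi207, whose proteins bind DNA, had log2 fold changes of 0.03 each, with standard errors of 0.206 and 0.163. The 9 nuclear and other intracellular proteins had a median of 0.05. Slfn5, a Schlafen protein of the nucleus, had the largest value among them, 0.39 (standard error 0.205, FDR 0.256), with 23.3 to 59.5 CPM in WT and 30.7 to 92.2 CPM in knock-in libraries. Parp14 was at 116.5 ± 11.3 CPM in WT and 128.8 ± 23.6 CPM in knock-in libraries, Trim30a, which restrains NF-kB signalling, at 76.1 ± 12.7 and 78.8 ± 12.7 CPM, and Ifi44 at 1.06 ± 0.717 and 1.38 ± 0.877 CPM (n = 8 each). The remaining members of this role, Sp100, Xaf1, Phf11b, Slfn2 and Ifi35, had log2 fold changes from -0.08 to 0.13. The secreted proteins were both slightly below 0. Cxcl10, a chemokine that draws T cells, had medians of 22.6 CPM in WT and 20.5 CPM in knock-in libraries, and Lgals3bp of 176 and 165 CPM.

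Within each sex the result was the same in its calls. In females 0 of 39 genes were called by edgeR (7.15% of all tested genes were), with Eif2ak2 at an unadjusted p below 0.05 (20.8% of all tested genes), and the median log2 fold change was 0.08. DESeq2 and limma voom called 0, each with Eif2ak2 at an unadjusted p below 0.05. In males 0 were called (0.252% of all tested genes were), with 0 members at an unadjusted p below 0.05 (11.7% of all tested genes), and the median was 0.09. DESeq2 called 0 in males, with Ifit3b at an unadjusted p below 0.05, and limma voom called 0 with 0. When all genes of at least 1 count were kept, edgeR called 5 members in males (Ifit2, Ifit3, Ifit3b, Usp18 and Rsad2), against 2.23% of all genes. All members pass the minimum of 5 counts, as do 18227 genes. Of these 18227, edgeR called 46 in males with that minimum and 827 in this setting. The adjusted p of Ifit2 was then 3.5e-06, against 0.546 with the minimum of 5 counts, at a log2 fold change of 0.59 in both. The same setting called Ifi27l2a in females (5.42% of all genes), Ifit2 in the interaction (1.19%) and Ifit3b over both sexes (4.75%). Of the 18227 genes that pass the minimum, it called 1943 in females, 435 in the interaction and 1611 over both sexes. The largest fold changes were those of Ifi27l2a in females, 0.53 on the log2 scale (FDR 0.468), and of Ifi44 in males, 0.71 (FDR 0.679). The test of the interaction found no difference between the sexes in the genotype effect of any member (0 called by edgeR against 0.0274% of all tested genes, with 0 at an unadjusted p below 0.05 against 5.94%, and 0 of each by DESeq2 and limma voom), where a median standard error of 0.421 leaves room for differences of some size. Between males and females over both genotypes, 0 members were called by edgeR (0.0604% of all tested genes were), with 0 at an unadjusted p below 0.05 (6.56% of all tested genes). DESeq2, which gave no adjusted p for 3 members, and limma voom called 0 with 0. The fitted male minus female differences had a median of 0.12 and were above 0 for 31 genes.

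The members varied together between libraries. Over the 16 libraries, with the mean of each group removed, the median Pearson r of the 741 pairs of members was 0.766 (median Spearman rho 0.753), and 94.6% of pairs were above 0.5. No pair was below 0. For all pairs of tested genes the median r was -0.0040, with 7.80% above 0.5. A single component carried 76.0% of the variance of the members, scaled per gene, against 23.4% for all tested genes. These genes share the libraries, their depth and their normalisation with every other pair, and the correlations are given as a description of the list.

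The relation did not rest on the high libraries alone, though it was weaker without them. With the 3 libraries of highest mean level left out, the median r over the remaining 13 libraries was 0.588, and 63.7% of pairs were above 0.5 (9.85% of all gene pairs). The pair most alike was Ifit3 and Usp18, with r = 0.979 and rho = 0.947. Permutation of libraries within groups gave p = 2e-05 for r, or 0.00156 after Benjamini-Hochberg adjustment over the 741 pairs, and 0.00159 adjusted for rho, and r was 0.962 without the 2 libraries farthest from the median of Ifit3. The least alike pair was Mx2 and Lgals3bp, with r = 0.206. By its median r with the other 38, Oasl2 was the most typical member (0.865), followed by Phf11b (0.862) and Slfn5 (0.861). Mx2 (0.529) and Cxcl10 (0.613) were the least typical.

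**Figure D4:**
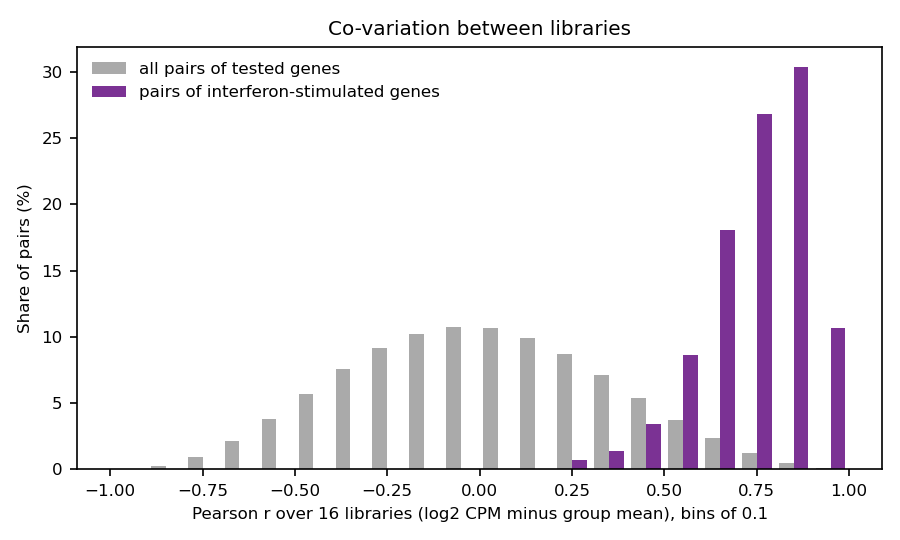
Shares of gene pairs (%) by Pearson r over 16 libraries, after the mean of each group was subtracted, in bins of 0.1, for the 741 pairs of interferon-stimulated genes and for all pairs of tested genes. The pairs of interferon-stimulated genes lie to the right, with a median of 0.766 against -0.0040.

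The high libraries did not carry the same profile. Knock-in male replicate 4 exceeded the median of the other 3 libraries of its group most for Mx1 (2.14 on the log2 scale), Usp18 (1.96), Ifit3 (1.94), Ifit2 (1.88) and Isg15 (1.79). For these genes WT male replicate 2 exceeded its group by 0.55, 1.05, 0.98, 1.01 and 0.34, and knock-in female replicate 2 by 0.15, 0.44, 0.53, 0.65 and 0.78. The order was the other way round for Gbp2, which was 0.39 above the group median in knock-in male replicate 4 but 1.73 in WT male replicate 2 and 1.38 in knock-in female replicate 2. Ifi27l2a (0.64, 1.11 and 1.58 in the same order of libraries), Ifitm3 (0.45, 1.02 and 1.44) and Lgals3bp (0.20, 0.98 and 0.65) followed Gbp2. Irf7 was raised about equally in all 3 libraries, by 1.34, 1.504 and 1.30.

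The second component of the members, 7.24% of their variance, separated these libraries in the same way, with scores of 3.36 for knock-in male replicate 4, -2.20 for WT male replicate 2 and -3.16 for knock-in female replicate 2. Mx2, Mx1, Herc6 and Usp18 loaded highest on it, and Gbp2, Lgals3bp, Bst2, Ifi27l2a and Ifitm3 lowest. Gbp2 is known to be induced by type II interferon (interferon-gamma) as well. Only knock-in male replicate 4 of these high libraries had the profile led by Mx1 and Usp18, so that profile has no replicate. The difference between the profiles was not tested.

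**Figure D5:**
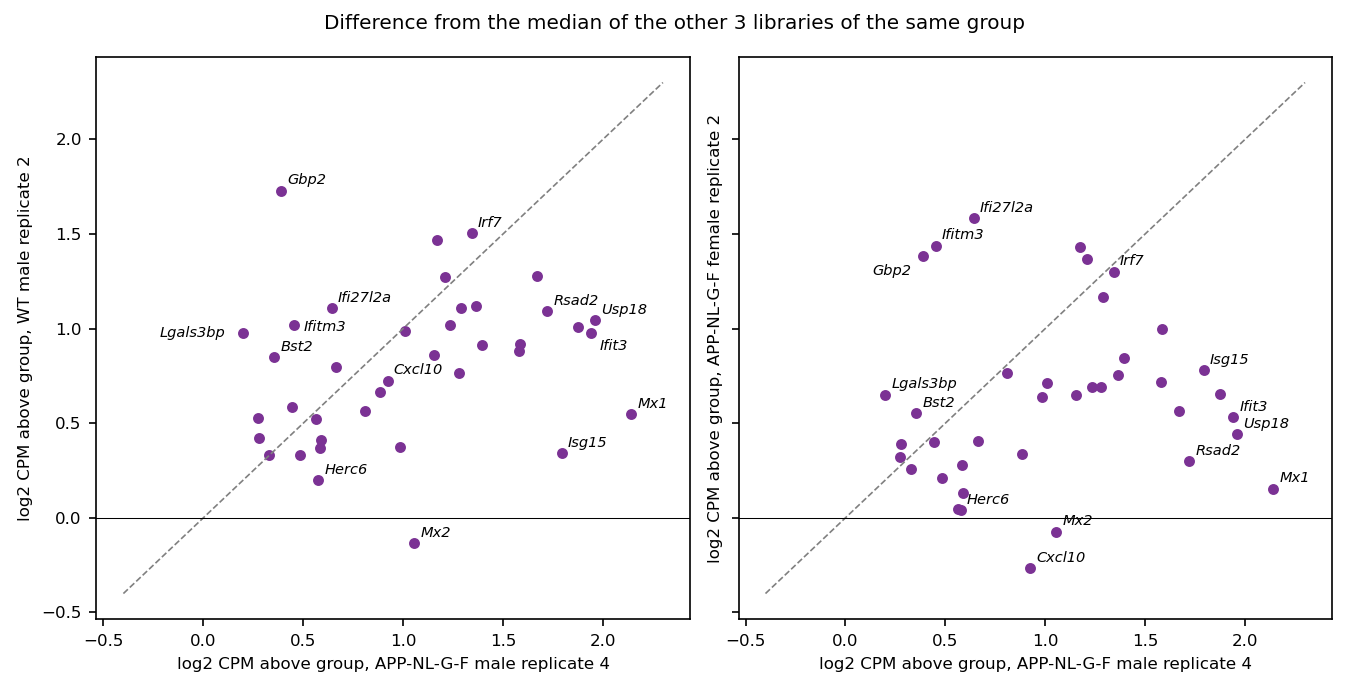
Each point is 1 of the 39 genes, placed by its log2 CPM above the median of the other 3 libraries of the same group in knock-in male replicate 4 (horizontal) and in WT male replicate 2 (left) or knock-in female replicate 2 (right); the dashed line marks equal values. Mx1, Isg15, Usp18 and Ifit3 lie below the line in both panels, and Gbp2, Ifitm3, Ifi27l2a and Lgals3bp above it.

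Markers of other cells were read in the same libraries, in the order knock-in male replicate 4, WT male replicate 2 and knock-in female replicate 2. The 8 tested of 9 monocyte markers summed to 147, 137 and 134 CPM, inside the 94.97 to 204 CPM of the other 13 libraries. The 15 microglia markers summed to 25646, 30480 and 27377 CPM against 25456 to 29725 CPM, so WT male replicate 2 was above the others. The 4 tested of 8 neutrophil markers summed to 230, 267 and 207 CPM against 186 to 294 CPM. The 8 border macrophage markers summed to 588, 653 and 597 CPM against 425 to 886 CPM. The 3 tested of 7 plasmacytoid dendritic cell markers (Tcf4, Pacsin1 and Cox6a2) summed to 296, 262 and 297 CPM against 258 to 335 CPM. Like the monocyte sums, these were inside the range of the others. Of the T, NK and B cell list 2 of 11 genes were tested, which summed to 5.20, 6.07 and 8.81 CPM against 5.96 to 8.74 CPM. The T cell genes Cd3e, Cd3d and Cd8a had at most 5, 4 and 4 counts in any library, and the neutrophil gene Ly6g at most 2. The untested plasmacytoid dendritic cell genes Ccr9, Spib, Cd209d and Klk1 had at most 9, 7, 6 and 1 counts. Csf3r was the most abundant gene of the neutrophil list and F13a1 of the monocyte list, and F13a1 is on the border macrophage list as well. These sums may therefore not measure the number of those cells. Neuron markers (661, 400 and 584 CPM against 451 to 734 CPM) and endothelial markers (120, 71.5 and 98.9 CPM against 79.5 to 243 CPM) were lowest of all libraries in WT male replicate 2. So were the 8 tested of 10 pericyte and fibroblast markers (65.3, 35.2 and 63.2 CPM against 44.3 to 125 CPM). Astrocyte markers (813, 586 and 716 CPM against 498 to 1211 CPM) were inside the range of the others. The same held for oligodendrocyte (427, 279 and 378 against 238 to 450 CPM) and olfactory ensheathing cell markers (139, 80.4 and 129 against 73.2 to 156 CPM). Within its group, knock-in male replicate 4 was highest for each of these glial lists and lowest for the microglia markers.

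Beyond the list, the 10 tested genes whose pattern over the 16 libraries was most like the members' mean included Ifi209 (r = 0.968), Casp1 (0.947), Ifi206 (0.947), Irgm1 (0.933), Rnf213 (0.927), Slfn8 (0.925), Znfx1 (0.920), Nlrc5 (0.918) and Rigi (0.916). Of these 10, 8 were on the list of other pathway genes, and Casp1 and Ifi206 were not. The median r over the 18188 tested genes outside the list was -0.012, with 5.46% above 0.5. Of the genes outside the list with the response element core before their start, 10.3% of 416 were above 0.5, against 4.95% of 13225 without it. Of the 10 genes 0 were called for genotype by edgeR, DESeq2 or limma voom, each with 1 at an unadjusted p below 0.05. By edgeR this was Casp1, an inflammatory protease, with an FDR of 0.0768 and a log2 fold change of -0.27.

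The rest of the pathway was read from a list of 144 other genes, of which 116 were tested. The ligands were close to absent. Of 21 interferon genes only Ifnb1 (interferon-beta) passed the minimum, with 1 to 16 counts per library, and no other interferon gene had more than 1 count in any library. Ifnb1 lay between 0.102 and 1.85 CPM in WT and between 0.170 and 1.05 CPM in knock-in libraries, and the fitted difference, knock-in minus WT, was -0.61 on the log2 scale (standard error 0.456, FDR 0.458). In the libraries of highest mean level it was at 1.05, 0.619 and 0.448 CPM, not above the range of the others. Within their own groups, knock-in male replicate 4 (1.05 CPM, beside 1.01 in replicate 3) and knock-in female replicate 2 were highest. WT male replicate 2 was not, since WT male replicate 1 had 0.942 CPM. The r of Ifnb1 with the members' mean was 0.422.

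The receptors and kinases were present in every library. Ifnar2 ran from 24.7 to 31.2 CPM in WT and from 25.9 to 30.1 CPM in knock-in libraries. Ifnar1 had 73.1 ± 5.11 CPM in WT and 69.7 ± 3.24 CPM in knock-in libraries, and Jak1 386 ± 28.9 and 372 ± 20.1 CPM (n = 8 each). Ifngr1, the receptor of type II interferon, had 485 ± 47.0 and 472 ± 46.4 CPM. Of the 9 genes of this class 0 were called by edgeR, DESeq2 or limma voom, each with 1 at an unadjusted p below 0.05. Of the 75 other interferon-stimulated genes tested, 0 were called by edgeR and 6 had an unadjusted p below 0.05, against 8.64% and 24.1% of all tested genes. DESeq2 called 0 (4 at that p) and limma voom 1 (7). Against the members' mean 63 of the 75 had an r above 0.5. Among them Ly6e had 417 ± 52.9 CPM in WT and 393 ± 31.1 CPM in knock-in libraries and Rnf213 291 ± 42.6 and 301 ± 70.4 CPM.

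Over all 116 genes edgeR and DESeq2 called 0 higher and 1 lower, where edgeR called 4.33% and 4.30% of all tested genes, with 18 and 15 at an unadjusted p below 0.05. Limma voom called 2 lower, with 20. The called gene was Socs3, an inhibitor of cytokine receptors that JAK-STAT signals induce. It had 418 to 547 CPM in the WT females and 231 to 268 CPM in the WT males, against 113 to 239 CPM in the knock-in females and 81.0 to 274 CPM in the knock-in males. It fell by 1.09 on the log2 scale (standard error 0.239, FDR 0.00762), and by 1.59 in females (FDR 0.00397). In males its change was -0.59 (FDR 0.454), and the interaction had an FDR of 0.753. In that female comparison Ccl12, a monocyte chemokine, was also called, with 89.5 to 112 CPM in WT and 37.8 to 60.6 CPM in knock-in females, a fall of 1.04 on the log2 scale (FDR 0.0532). In males its change was -0.0094 (FDR 0.994), and its interaction had an FDR of 0.754. Over both sexes Ccl12 was not called (-0.53, FDR 0.193). It was called without knock-in male replicate 4, which had 115 CPM, at -0.80 (FDR 0.00526), and in 3 other fits.

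Immediate early genes differed between the genotypes, and among WT libraries between the sexes. Of 20 such genes, 19 were called lower in knock-in microglia, as were 4.30% of all tested genes. Their summed level was 14530 to 18677 CPM in the WT females and 8417 to 9850 CPM in the WT males. It was 4435 to 8118 CPM in the knock-in females and 3798 to 8796 CPM in the knock-in males, whose range overlapped that of the WT males. In replicates 1 to 4 of the knock-in males it was 3895, 3798, 7816 and 8796 CPM, and Socs3 was at 94.8, 81.0, 201 and 274 CPM. The members' mean log2 CPM was also higher in replicates 3 and 4 of that group. In both WT sexes the highest library for the members had the lowest sum (14530 and 8417 CPM). In the knock-in females the lowest for the members had the highest sum, 8118 CPM. These relations and the part of the immediate early genes in the fall of Socs3 were not tested. At an FDR below 0.1 without the fold threshold, met by 14.8% of all tested genes, Irf5 (-0.24, FDR 0.0152) and Irf3 (-0.19, FDR 0.0240), factors that induce interferon genes, Ticam1 (-0.29, FDR 0.0309), the adaptor of a receptor for double-stranded RNA, and Irf2bp2 (-0.21, FDR 0.00745), a corepressor, were lower. Irgm2, a GTPase of pathogen vacuoles, was higher (0.17, FDR 0.0979). Irf8, a lineage factor of microglia, was at 350 ± 25.05 CPM in WT and 323 ± 19.6 CPM in knock-in libraries (-0.12, FDR 0.125), the phosphatase Ptpn6 at 322 ± 22.3 and 297 ± 22.4 CPM, the RNA sensor Tlr7 at 256 ± 34.0 and 232 ± 28.5 CPM and the DNA-sensing adaptor Sting1 at 143 ± 12.3 and 139 ± 4.46 CPM (n = 8 each). None of these last genes had an FDR below 0.1.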

How the data were processed

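The authors isolated CD11b-positive cells from the olfactory bulb, prepared libraries with the Takara SMART-Seq Stranded kit, and aligned paired reads with STAR to GRCm39 with gencode vM32 and a human App sequence added. They deposited the resulting raw counts per gene, 1 column per library, without normalization. The strand setting of the counting is not given in the sources used here, so overlapping genes on opposite strands may share reads. The labels give no batch.

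Genes that reached 5 counts in 8 or more of the 16 libraries were normalized by TMM and tested in R 4.3.3 with edgeR 4.0.16 (quasi-likelihood, trended dispersion, sex and genotype as terms); within-sex and interaction contrasts came from a fit of the 4 groups. P-values were adjusted over all 18227 genes. A call required, as in the study, an FDR under 0.1 and a log2 fold change beyond 0.5 either way. CPM use the TMM-scaled library total, and log2 CPM a prior count of 2. Exact permutation exchanged genotype within sex on log2(CPM + 0.2). Pair correlations were permuted within groups 100000 times. Promoters were read from GRCm39 with gencode vM39.

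Members, roles, pathway and marker lists were chosen with earlier results of these data known. Named with full values were the 3 members of smallest p, the 5 most abundant, the 5 of largest spread, the most correlated pair and, for each pathway class, the called and most abundant genes; other members named in the text were chosen after their values were seen, and a gene outside the list is not reported here. Alternatives were DESeq2 1.42.0, limma 3.58.1 (voom), other normalizations, filters and thresholds, a replicate block, no sex term and each library left out in turn. Leaving out the 3 libraries of highest mean level was added after seeing the data. The fit was tested on simulated counts. With 9052932 to 18117286 counts per library, the least abundant members are the least precise.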

Additional observations from a re-analysis of the deposited data

Results flagged for a closer look

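A library stood far from the other 3 of its group for 14 of the 164 gene and group combinations examined (the 39 members, their mean log2 CPM and the total counts in each of the 4 groups). The measure was the gap between the highest or the lowest library and the next, divided by the range of the group, with a cutoff of 0.829. Chance marks about 1 in 20 groups of normally distributed values, which is 8.2 of 164, and the members vary together, so these are not 14 independent observations. All 14 were high values and fell in the libraries already described. Knock-in male replicate 4 was the highest for Usp18 (a gap of 0.865 of the range) and Stat2 (0.836). WT male replicate 2 was the highest for Irf7 (0.878), Oasl1 (0.880), Gbp3 (0.894), Bst2 (0.869) and Ifi44 (0.854). Knock-in female replicate 2 was the highest for Oas1a (0.858), Oasl2 (0.923), Gbp2 (0.836), Gbp3 (0.973), Ifitm3 (0.906), Ifi27l2a (0.839) and Lgals3bp (0.866). No such gap was found in the WT females.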

How the results depend on the processing

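The count of 0 members called held in all 5 comparisons with other normalizations, DESeq2, limma voom, a minimum of 10 counts, the FDR alone or at 0.05, a term for replicates 1 and 2 against 3 and 4, no sex term (run for genotype over both sexes) and any library left out. It did not hold with all genes of at least 1 count (39394 genes): then 1 member was called over both sexes (Ifit3b, adjusted p 0.0325; 4.75% of all genes), 1 in females (Ifi27l2a; 5.42%), 5 in males (Ifit2, Ifit3, Ifit3b, Usp18 and Rsad2; 2.23% of all genes), 1 in the interaction (Ifit2; 1.19%) and 0 for sex, and 3 pathway genes. Of the 18227 genes that pass the minimum of 5 counts, as all members do, this setting called 1611 over both sexes and 1943 in females. In males it called 827 of them and in the interaction 435. The fold changes barely moved (0.53 for Ifit3b). The cause was not tested. Replicate numbers did not pair the libraries: same-numbered WT and knock-in libraries correlated from -0.33 to 0.13, with 2 of 8 pairs above 0.1, and 2 best with their own number. With replicate number as a block, 0 members were called in each comparison, the median log2 fold change was 0.12, 1 pathway gene was called and the median r was 0.803.

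The pathway count of 1 (Socs3) became 2 with limma voom, 6 at the FDR alone, 2 without the 3 libraries of highest mean level and 1 to 2 with single libraries left out (2 without knock-in female replicate 2 or knock-in male replicate 4). The median r fell to 0.588 without those 3 libraries. Of 1066 fitted log2 fold changes of 41 named genes, 990 kept their direction and call, 71 changed sign and 5 gained a call (4 of Ccl12, 1 of Ifit3b). With limma voom the sign turned for Isg15 (-0.000737), Bst2 (-0.00869), Ifitm3 (-0.00976), Ifi204 (-0.0367) and Ifi207 (-0.0170). Without the 3 libraries it turned for Isg15 (-0.21), Irf9 (-0.0138), Oas1a (-0.0161), Ifih1 (-0.00753), Mx1 (-0.00694), Mx2 (-0.0774), Ifitm3 (-0.0759), Ifi204 (-0.18), Ifi207 (-0.0999), Xaf1 (-0.00545) and Cxcl10 (0.00839). With single libraries left out, values on both sides of 0 were found for 20 genes, none called over both sexes in any fit: Bst2 (-0.0718 to 0.154), Cxcl10 (-0.134 to 0.0405), Gbp3 (-0.0888 to 0.0137), Ifi204 (-0.161 to 0.169), Ifi207 (-0.0831 to 0.124), Ifi27l2a (-0.0892 to 0.415), Ifih1 (-0.0421 to 0.078), Ifitm3 (-0.154 to 0.225), Irf9 (-0.0297 to 0.0761), Isg15 (-0.135 to 0.249), Lgals3bp (-0.161 to 0.101), Mx1 (-0.0289 to 0.396), Mx2 (-0.0836 to 0.145), Oas1a (-0.0654 to 0.213), Oas2 (-0.216 to 0.0324), Phf11b (-0.000303 to 0.269), Slfn2 (-0.123 to 0.0757), Sp100 (-0.134 to 0.104), Trim30a (-0.0073 to 0.138) and Xaf1 (-0.1001 to 0.177). The lowest value came without knock-in male replicate 4 or knock-in female replicate 2 for all of them but Cxcl10, and the highest without WT male replicate 2 for all but Isg15, Mx1, Mx2, Oas2 and Cxcl10. Depth limits the least abundant members, Ifi44 (4 to 41 counts) and Oasl1 (11 to 68 counts).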
